A study of Macaca fuscata with 12 samples.

Results

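This section describes 6 genes of cortical excitatory projection neurons: FEZF2, NEUROD6, FOXP2, SULF1, CAMK2A and CAMK2B. They were chosen from their training or region changes in these same data, so their changes below are a description and carry no test. Of the 14132 genes with a single symbol on the array, these 6 were read by 15 probe sets, and every one of the 15 is reported. FEZF2, NEUROD6 and CAMK2A had 1 probe set each, SULF1 had 3, CAMK2B had 4 and FOXP2 had 5.

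Excitatory projection neurons are the glutamatergic pyramidal cells that carry signals between cortical areas and from the cortex to deeper structures. FEZF2 is a zinc finger transcription factor needed to form deep-layer neurons that project out of the cortex, and NEUROD6 is a basic helix-loop-helix factor of differentiating and mature pyramidal cells. FOXP2 is a forkhead factor found mainly in deep-layer cortical neurons and best known for its role in speech and vocal learning. SULF1 is a secreted enzyme that removes sulfate groups from heparan sulfate, which changes how growth factors bind at the cell surface. CAMK2A and CAMK2B are subunits of the calcium/calmodulin-dependent kinase that is concentrated at excitatory synapses and needed for their plasticity.

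The tissue came from the left hemisphere of 8 Japanese macaques (Macaca fuscata), on 12 rhesus macaque arrays in 4 groups of 3. One region was the secondary somatosensory cortex with the area around the lateral sulcus (SII), taken from 3 control animals (a female of 4 years 6 months and males of 5 years 4 months and 5 years 10 months) and from 3 animals trained in tool use (a male of 5 years 7 months, a female of 3 years 10 months and a male of 5 years 1 month). Cortex around the intraparietal sulcus (IPS) was taken from 3 male controls (5 years 4 months, 5 years 10 months and 3 years 9 months) and 3 male trained animals (5 years 7 months, 6 years and 5 years 1 month). Both regions were sampled in 4 animals, the older pair of IPS controls and trained animals 1 and 3. Errors and tests therefore cover only the spread between these animals and arrays. In such bulk tissue, fewer cells of a type and less RNA per cell cannot be told apart.

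Values are log2 expression relative to the probe set's own median over the 12 arrays, so they give no level. Standard errors (SE) are from limma's fit over all probe sets, which lets arrays of the same animal correlate, and each group has n = 3. No probe set passed Benjamini-Hochberg adjustment in limma in any of the 6 comparisons (0% of 52766), while 2043 had an unadjusted p under 0.05 for training in SII, 1726 for training in IPS, 4035 for region in controls and 2580 for region in trained animals. Over 14132 genes the count was 0 (0%) for both training changes, their difference and the region difference in controls, 1 for the region difference in trained animals (0.00708%) and 2 for the averaged region difference (0.0142%). The genes that passed were ACOD1 and KIR2DL4, which are in none of the lists used here and were named after their values were seen. Each has 1 probe set, which did not pass in the fit over all probe sets. That of ACOD1 read the lowest value an array reports on some arrays. As for the labelled tissue, 15 of 22 listed general excitatory neuron genes were on the array, all 15 with a high or middle signal. The same held for 11 of 12 hippocampus and amygdala markers and 10 of 12 striatum and claustrum markers. This reading therefore does not set the labelled tissue apart. Of the 15 member probe sets, 9 had a high or middle signal, 4 a low one, and 2 reached the floor, the lowest value an array reports.

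Readings of array quality moved with some of the 6 genes. The hybridisation controls, RNA added at fixed amounts, were raised in SII control 1 (0.47), SII trained 2 (0.49) and IPS trained 3 (0.44), and lay between -0.14 and 0.08 on the other arrays. The first 2 of these are the female animals, so sex and this reading cannot be told apart there. The probe set for the middle of GAPDH, a housekeeping transcript, was also highest in these females, at 0.78 and 0.87. Over the 12 arrays it correlated with FEZF2 at r = 0.78, with SULF1 probe set 28408 at 0.84 and with the high-signal CAMK2B probe sets at 0.77 to 0.84, and 16.4% of all probe sets with high or middle signal had an r above 0.5. Its r with NEUROD6 was -0.09 and with CAMK2A 0.16. Readings from GAPDH also separated the control regions. GAPDH at the 3' end minus the 5' end was -0.31, -0.27 and -0.51 in SII controls and 0.28, -0.02 and -0.10 in IPS controls, and the middle GAPDH probe set read 0.78, 0.00 and 0.39 against -0.31, -0.10 and -0.07. The 3' minus 5' reading of actin did not, at 0.25, -1.87 and -1.71 in SII controls against 0.02, 0.23 and 0.05 in IPS controls. That of GAPDH was highest in SII trained 1 (0.77) and IPS trained 3 (0.89). The GAPDH 3' minus 5' reading correlated with SULF1 28408 at r = -0.62, with the high-signal CAMK2B probe sets at -0.48 to -0.32 and with FEZF2 at -0.32. The control region differences of FEZF2, SULF1 28408 and CAMK2B below stand beside the GAPDH split. The comparisons with trained groups include SII trained 1 or IPS trained 3 or both. The part of these readings in any of the changes was not tested.

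**Figure D1:**
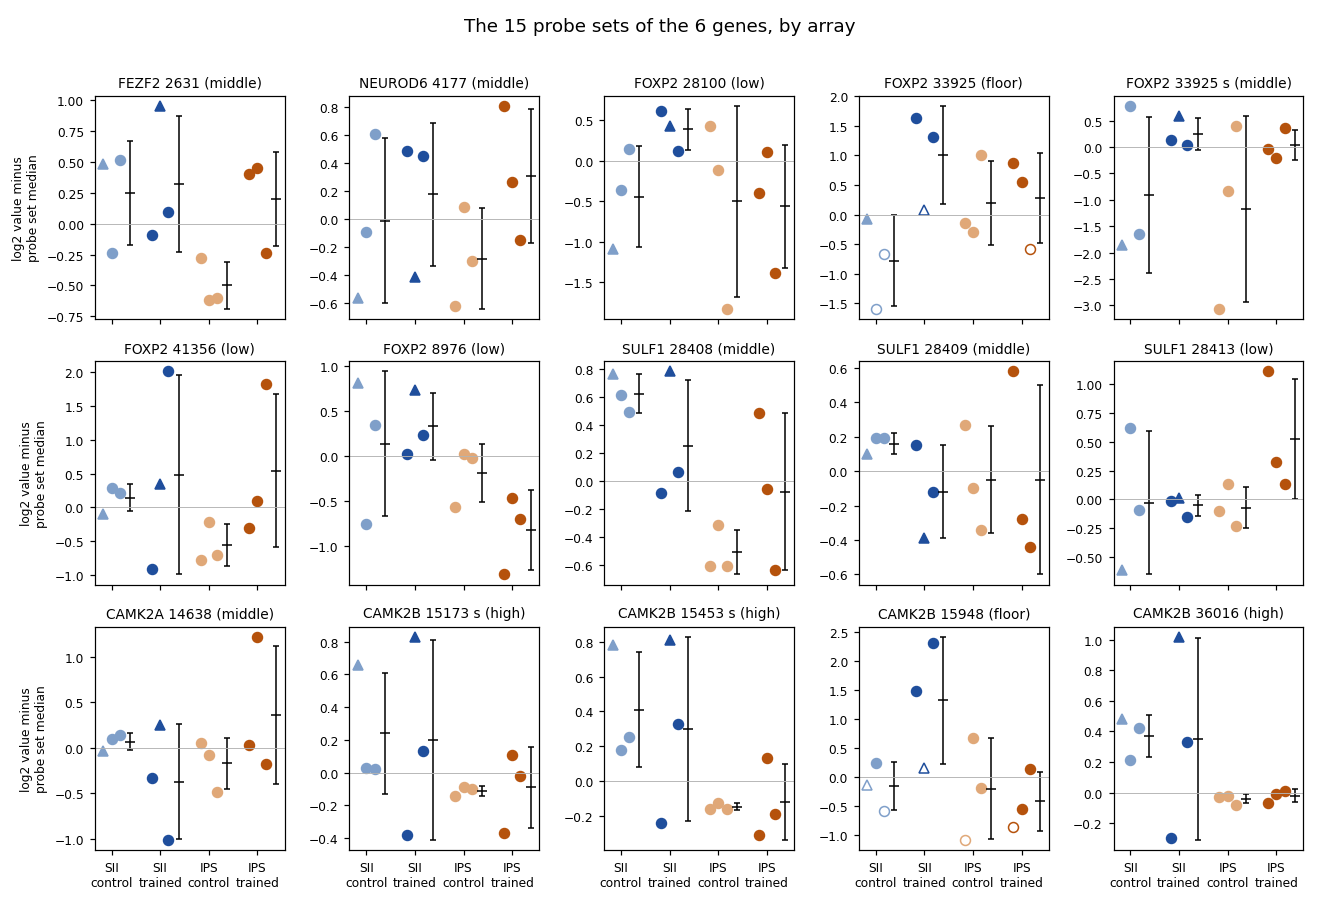
Log2 value of each of the 15 probe sets (minus its median over the 12 arrays) on the y axis, by group on the x axis, with the signal class after each name. "s" marks probe sets whose identifier ends in s_at. Filled circles are male and triangles female animals, open symbols are floor values, and the black bar to the right of each group is its mean ± SD (n = 3). FEZF2 is lowest in the 3 IPS controls (-0.62 to -0.28), and the high-signal CAMK2B probe sets are highest in the females (0.48 to 1.02).

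FEZF2 was lowest in the IPS of control animals and similar in the other 3 groups. On its probe set (MmuSTS.2631.1.S1_at, middle signal) the IPS controls read -0.28, -0.62 and -0.60 and the IPS trained animals 0.40, 0.45 and -0.24. The SII controls read 0.48, -0.24 and 0.51 and the SII trained animals -0.09, 0.95 and 0.09. The IPS groups did not overlap, but by a narrow margin: trained animal 3 (-0.24) lay just above control animal 1 (-0.28). The SII groups overlapped fully.

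In IPS, FEZF2 was thus 0.71 ± 0.34 (SE) higher after training, or 1.64-fold, and in SII the change was 0.07 ± 0.34. The difference between these training changes was 0.64 ± 0.48. Between regions, IPS was lower than SII by -0.75 ± 0.34 in controls, where the groups did not overlap, and by -0.11 ± 0.34 in trained animals, a value that was 0.04 after quantile normalization and 0.20 in male animals only. The IPS training change and the control region difference share the 3 IPS control arrays. Leaving out any 1 array kept the IPS training change between 0.59 and 0.96 and the control region difference at -0.62 or lower. In male animals only, these were 0.70 and -0.64. The SII training change of FEZF2 had no stable sign, at -0.25 without SII trained animal 2, the female with the highest reading, and 0.25 at the other end. Ordered by group mean, IPS controls (-0.50) lay below IPS trained (0.20) by more than the larger of their SDs, while the steps to SII control (0.25) and SII trained (0.32) lay within the spread.

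NEUROD6 had a higher mean in trained than in control IPS, but its groups overlapped. On probe set MmuSTS.4177.1.S1_at (middle signal), the IPS controls read -0.62, 0.09 and -0.30 and the IPS trained animals 0.81, 0.27 and -0.15. The SII controls read -0.56, -0.09 and 0.61 and the SII trained animals 0.49, -0.41 and 0.45. Each group spanned a wide range, and no pair of groups was separated. The training change was 0.59 ± 0.39 in IPS (0.34 to 0.83 with 1 array left out) and 0.19 ± 0.39 in SII, where it was -0.08 without control animal 1 and -0.02 without trained animal 3. The region difference was -0.27 ± 0.38 in controls and 0.12 ± 0.38 in trained animals (-0.16 in male animals only), and neighbouring group means, from -0.28 in IPS controls to 0.31 in IPS trained, lay within their spread.

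FOXP2 was higher in the SII of trained animals than in the other groups when its probe sets were averaged. The mean of the 5 probe sets was -0.46, -0.33 and -0.32 in SII controls and 0.30, 0.43 and 0.74 in SII trained animals. It was -0.82, -0.29 and -0.23 in IPS controls and -0.23, 0.02 and -0.10 in IPS trained animals. The SII groups lay apart, and the IPS groups met at -0.23.

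The averaged training change of FOXP2 was 0.86 ± 0.21 in SII (1.82-fold) and 0.34 ± 0.21 in IPS, with a difference of -0.52 ± 0.29 between them. In trained animals IPS lay below SII by -0.60 ± 0.20 without overlap, and in controls by -0.08 ± 0.20. The probe sets behind this mean did not follow each other over the arrays, with pairwise r from -0.21 to 0.32. The SE of the mean does not cover how its probe sets differ. Their SII training changes were all above 0: 1.78 ± 0.58 for MmugDNA.33925.1.S1_at, 1.13 ± 0.87 for MmugDNA.33925.1.S1_s_at, 0.86 ± 0.58 for MmugDNA.28100.1.S1_at, 0.34 ± 0.69 for MmugDNA.41356.1.S1_at and 0.19 ± 0.41 for MmugDNA.8976.1.S1_at. Only the first separated the SII groups, and it read the floor in 4 arrays.

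That probe set, 33925, read -0.07, -1.60 and -0.67 in SII controls, of which the last 2 were floor values, and 1.63, 0.07 and 1.32 in SII trained animals, of which the female's 0.07 was a floor value. The floor itself differs between arrays, so the separation of the female from the controls rests on where each array's floor lay. With 1 common floor for all arrays its change was 0.94, against 1.78 as deposited. Without floor probe sets the averaged training change of FOXP2 was 0.63 in SII and 0.41 in IPS. The median over its probe sets gave 0.36 in SII and 0.00 in IPS. With high and middle signals only, which leaves the s_at probe set of 33925, the changes were 1.08 ± 0.85 in SII and 1.27 ± 0.85 in IPS. Their difference was then 0.19 ± 1.15, and IPS lay below SII in trained animals by -0.18 ± 0.81. The higher reading in trained SII thus rests on the low and floor probe sets.

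In IPS the FOXP2 probe sets went different ways. Training changes were 1.23 ± 0.87 for the s_at probe set of 33925, 1.10 ± 0.69 for 41356, 0.07 ± 0.58 for 33925, -0.05 ± 0.58 for 28100 and -0.64 ± 0.41 for 8976. The s_at probe set, the one with a middle signal, ranged from -3.07 to 0.40 in IPS controls and from -0.21 to 0.36 in IPS trained animals, with SDs of 1.76 and 0.29. Probe set 8976 was the lowest in IPS trained animals (-1.31, -0.46 and -0.70) and did not overlap the SII trained animals (0.02, 0.73 and 0.23), a difference of -1.15 ± 0.40. Probe set 28100 also lay lower in IPS than SII in trained animals without overlap (-0.96 ± 0.58), and 41356 lay lower in IPS than SII in controls (-0.70 ± 0.68).

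SULF1 had 1 probe set that separated the regions in controls and others that did not. Probe set MmugDNA.28408.1.S1_at (middle signal) read 0.76, 0.61 and 0.49 in SII controls and -0.61, -0.32 and -0.61 in IPS controls. In trained animals it read -0.09, 0.78 and 0.06 in SII and 0.48, -0.06 and -0.64 in IPS. The control regions lay far apart for this probe set, and the trained regions overlapped.

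The region difference of 28408 was -1.13 ± 0.32 in controls, or 2.19-fold lower in IPS, and -0.32 ± 0.32 in trained animals. It stayed between -1.22 and -1.06 in controls with any 1 array left out and was -1.06 in male animals only. In trained animals it was between -0.60 and 0.04. The training change of 28408 was -0.37 ± 0.32 in SII and 0.44 ± 0.32 in IPS, with overlap in both and a difference of 0.81 ± 0.45 between the changes.

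The other SULF1 probe sets did not show this. For MmugDNA.28409.1.S1_at (middle signal) the control region difference was -0.21 ± 0.29, with SII controls at 0.10, 0.19 and 0.19 and IPS controls at 0.27, -0.10 and -0.34. For MmugDNA.28413.1.S1_at (low signal) it was -0.05 ± 0.34. This last probe set was instead highest in IPS trained animals (1.11, 0.32 and 0.13), above all SII trained animals (-0.01, 0.01 and -0.15), by 0.57 ± 0.34. The 3 probe sets correlated at r = 0.14 to 0.40, and the mean over them gave -0.46 ± 0.25 for the region difference in controls and 0.35 ± 0.25 for training in IPS, which was 0.05 without IPS trained animal 1.

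CAMK2A, on its single probe set (MmugDNA.14638.1.S1_at, middle signal), read lower after training in SII and higher in IPS, with each value resting largely on 1 animal. The SII controls were tightly grouped at -0.03, 0.10 and 0.14, and the SII trained animals read -0.33, 0.25 and -1.01. The IPS controls read 0.05, -0.08 and -0.48 and the IPS trained animals 0.03, 1.22 and -0.18. Groups overlapped in both regions.

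The training change of CAMK2A was -0.42 ± 0.41 in SII and 0.54 ± 0.41 in IPS, and the difference between them was 0.96 ± 0.56. Leaving out 1 array moved the SII change between -0.72 and -0.03 and the IPS change between 0.11 and 0.78. The IPS value rested on trained animal 2, which read 1.22, and the SII value on trained animal 3, which read -1.01. IPS lay above SII by 0.72 ± 0.40 in trained animals and below it by -0.24 ± 0.40 in controls.

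CAMK2B read lower in IPS than in SII in controls on its high-signal probe sets. Probe set MmugDNA.15453.1.S1_s_at read 0.78, 0.18 and 0.25 in SII controls and -0.16, -0.13 and -0.16 in IPS controls. It read -0.24, 0.81 and 0.33 in SII trained animals and -0.31, 0.13 and -0.19 in IPS trained animals. The control regions did not overlap, the trained regions did, and the highest values were those of the females.

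The other high-signal CAMK2B probe sets, MmugDNA.15173.1.S1_s_at and MmugDNA.36016.1.S1_at, gave nearly the same pattern (r = 0.90 to 0.95 among the 3), so they count as 1 observation. IPS lay below SII in controls by -0.55 ± 0.29 for 15453 (1.46-fold), -0.34 ± 0.31 for 15173 and -0.41 ± 0.29 for 36016, each without overlap. In trained animals the differences were -0.42 ± 0.29, -0.28 ± 0.31 and -0.36 ± 0.29 with overlap. In male animals only they were -0.37, -0.13 and -0.36 in controls and -0.17, 0.03 and -0.04 in trained animals. Training changes of these 3 in IPS were 0.02 to 0.03. In SII they were -0.10, -0.04 and -0.02 for 15453, 15173 and 36016 with all arrays, and -0.17, -0.14 and -0.30 in male animals only. The SII values turned on single arrays: without trained animal 2, the female, they were -0.36, -0.35 and -0.35, and without trained animal 1 they were 0.16, 0.25 and 0.31.

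**Figure D2:**
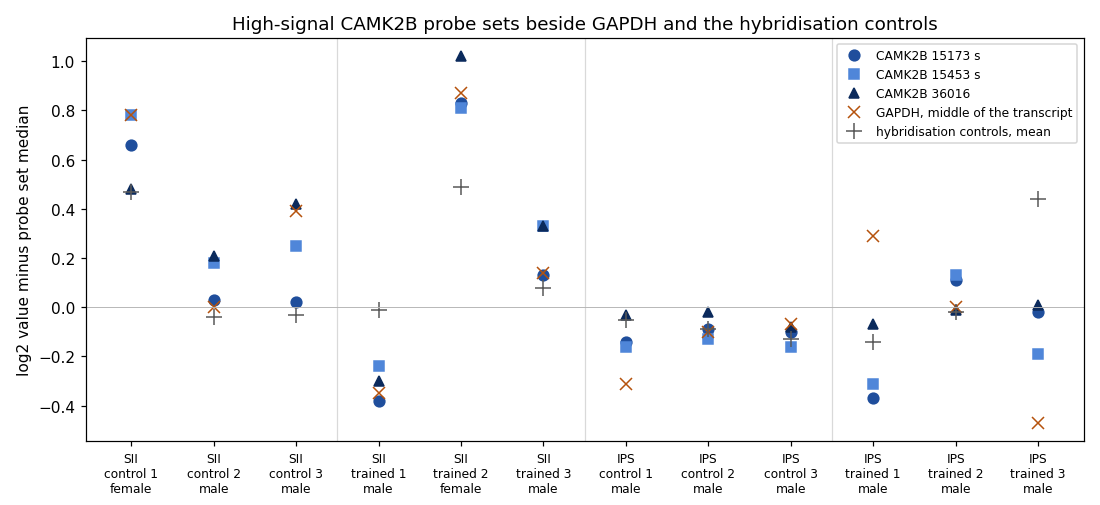
Log2 value minus the probe set median (y axis) of the 3 high-signal CAMK2B probe sets on each array (x axis), beside the GAPDH probe set for the middle of the transcript and the mean of the 18 hybridisation controls. CAMK2B and GAPDH are both highest in SII control 1 and SII trained 2, the arrays of female animals, where the hybridisation controls read 0.47 and 0.49.

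The remaining CAMK2B probe set, MmugDNA.15948.1.S1_at, read the floor in 5 arrays and did not follow the others (r from 0.01 to 0.11). It read 1.48, 0.16 and 2.31 in SII trained animals, the female's 0.16 being a floor value, and -0.14, 0.24 and -0.58 in SII controls, of which the first and last were floor values. It read -0.85 (a floor value), -0.55 and 0.14 in IPS trained animals. The training change in SII was 1.47 ± 0.58 with overlapping groups, and IPS lay below SII in trained animals by -1.75 ± 0.57. The trained regions were separated only by the female's floor value (0.16 against 0.14 in IPS trained animal 3), and at the common floor of 0.16 these arrays tie. With that common floor the changes were 1.13 and -1.16. The mean over the 4 CAMK2B probe sets had a training change of 0.33 ± 0.23 in SII, which was -0.05 without the floor probe set.

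**Figure D3:**
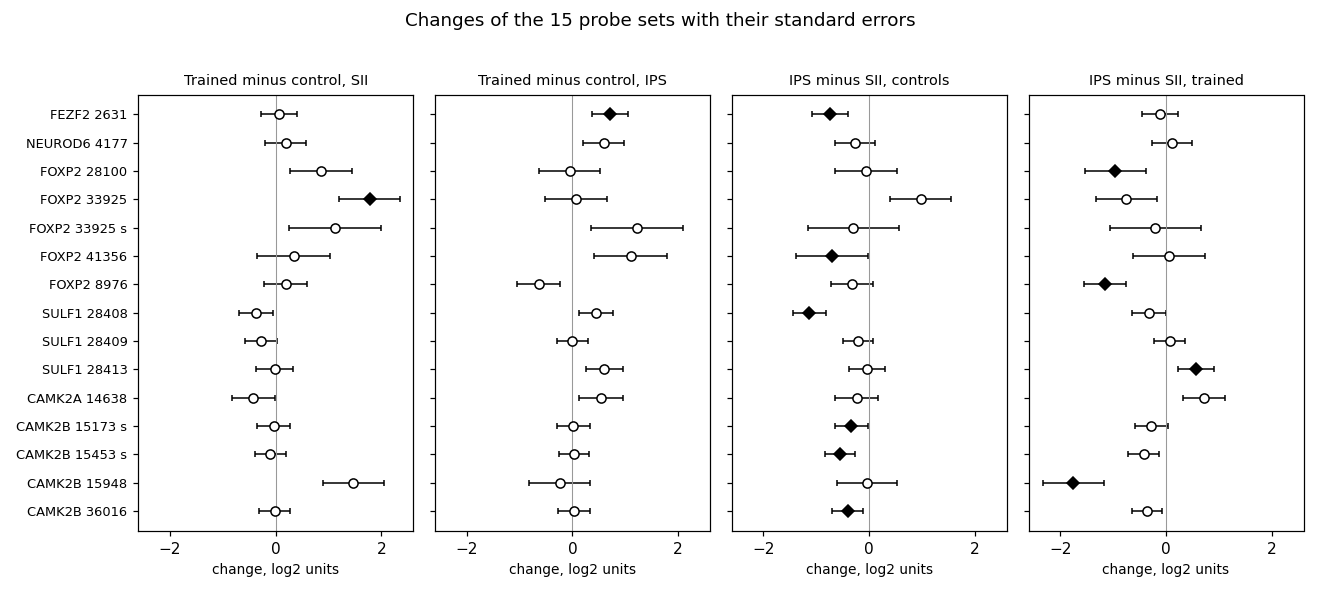
Change of each probe set in log2 units (x axis) with its SE, for training in SII, training in IPS, region in controls and region in trained animals. Filled diamonds mark probe sets whose groups of 3 do not overlap. FEZF2 stands at 0.71 for training in IPS, SULF1 28408 at -1.13 for region in controls and CAMK2B 15948 at -1.75 for region in trained animals.

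Over the 15 probe sets, groups did not overlap for 1 in the SII training comparison (FOXP2 33925) and 1 in the IPS training comparison (FEZF2), against 7.08% and 9.49% of all 52766 probe sets. For region, 6 of 15 did not overlap in controls, all lower in IPS. Of these, 3 are the high-signal CAMK2B probe sets, which count as 1 observation. Of all probe sets, 19.4% did not overlap in either direction in controls and 8.7% were lower in IPS without overlap. In trained animals 4 of 15 did not overlap, against 7.87%, and 1 of the 4, CAMK2B 15948, was separated only through a floor value. Since the genes were chosen from these comparisons, nothing is read from these shares. Averaged per gene, 5 of 6 were above 0 for training in IPS (median 0.44, all genes 0.03), where 54.6% of all genes were. For IPS minus SII in controls 0 of 6 were above 0 (median -0.30, all genes -0.01), against 48.5% of all genes. For training in SII 4 of 6 were above 0, and for region in trained animals 3 of 6. Over the 12 arrays the r between gene means ranged from -0.33 for CAMK2A with CAMK2B to 0.68 for FOXP2 with CAMK2B, a pair of genes that each average in a floor probe set (Spearman's rho 0.34). For FEZF2 it was 0.48 with SULF1, 0.41 with CAMK2A and 0.16 with NEUROD6.

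The 4 animals with both regions give the region difference within an animal. FEZF2 in IPS minus SII was -0.04 and -1.13 in the controls and 0.49 and -0.33 in the trained animals. SULF1 28408 was lower in IPS in both controls (-1.21 and -0.81) and in trained animal 3 (-0.70) but higher in trained animal 1 (0.57). Of the other SULF1 probe sets, 28413 was higher in IPS in 3 of 4 animals and 28409 in 2 of 4. The FOXP2 mean was -0.49 and 0.03 in the controls and -0.53 and -0.84 in the trained animals. Of the high-signal CAMK2B probe sets, 15453 was lower in IPS in 4 of 4 animals (-0.34 and -0.38 in controls, -0.06 and -0.52 in trained animals), while 15173 and 36016 were lower in 3 of 4 and read 0.01 and 0.23 higher in IPS in trained animal 1. NEUROD6 was lower in 3 of 4 animals and CAMK2A in 2 of 4, both of them controls. Trained animal 1 had the higher IPS reading for FEZF2, NEUROD6, SULF1 28408 and CAMK2A alike, and for CAMK2A trained animal 3 did too (0.83). In trained animal 1, FOXP2 28100, 33925 and 8976 and CAMK2B 15948 were lower in IPS (-1.02, -0.75, -1.34 and -2.33). The middle GAPDH probe set read -0.35 in SII and 0.29 in IPS of this animal. The part of that reading in these differences was not tested.

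**Figure D4:**
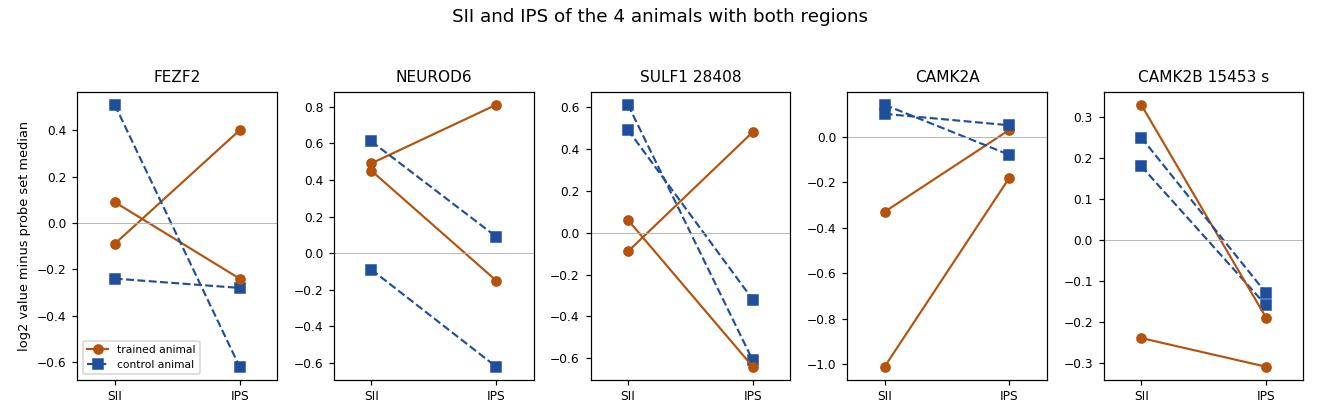
Log2 value minus the probe set median (y axis) in SII and IPS of the 4 animals sampled in both regions, each line 1 animal, for FEZF2, NEUROD6, SULF1 28408, CAMK2A and CAMK2B 15453. Solid lines with circles are the trained animals and dashed lines with squares the controls. All 4 lines fall for CAMK2B 15453, but only 3 of 4 do for the CAMK2B probe sets not drawn, 15173 and 36016. For FEZF2, NEUROD6 and SULF1 28408, 3 of 4 fall. Of the SULF1 probe sets not drawn, 28409 falls in 2 of 4 animals and 28413 in 1 of 4.

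Close relatives of the 6 genes were looked at where the array names them, and none of them passed the adjusted threshold. FOXP4, a forkhead partner of FOXP2, had a training change of 0.76 ± 0.24 in SII and 0.62 ± 0.24 in IPS (adjusted p = 1 and 0.999 in limma with Benjamini-Hochberg adjustment over all genes). FOXP1 had -0.08 ± 0.35 and 0.01 ± 0.35. SULF2, the second heparan sulfate sulfatase, had a control region difference of -0.22 ± 0.25. CAMK2D read higher in IPS than SII, by 0.54 ± 0.31 in controls, the opposite sign to CAMK2B, and CAMK2G had -0.09 ± 0.24 (adjusted p = 0.693 and 0.942, limma). FEZF1, NEUROD1 and NEUROD2 were not analysed here.

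In the lists of related genes, no gene passed in limma with Benjamini-Hochberg adjustment in any comparison. Of 20 deep-layer projection neuron genes, 12 were above 0 for training in IPS (median 0.04), and 1 had an unadjusted p under 0.05: POU3F1, a POU-domain factor, at -1.67 ± 0.42 (adjusted p = 0.999), opposite in sign to FEZF2. In the averaged region difference of this list, TOX, a nuclear HMG-box protein, read 0.73 ± 0.18 higher in IPS (adjusted p = 0.304) and SYT6, a synaptotagmin of deep-layer neurons, -0.60 ± 0.22 (adjusted p = 0.428). Of 17 upper-layer genes, 10 were above 0 for training in IPS (median 0.05), with 1 at an unadjusted p under 0.05, LMO4 at 0.47 ± 0.21. Of all 14132 genes, 54.6% were above 0 for training in IPS, with 239 higher and 177 lower at an unadjusted p under 0.05.

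Of 15 general excitatory neuron genes, 11 were above 0 for training in IPS (median 0.12, all genes 0.03), and none had an unadjusted p under 0.05. Their median control region difference was -0.10, with 4 lower and 1 higher at an unadjusted p under 0.05. Of all 14132 genes, 666 were lower and 464 higher at that limit. SLC17A7, the vesicular glutamate transporter of cortical pyramidal cells, averaged 0.59 and 0.44 in SII controls and trained animals and -0.54 and -0.23 in IPS, an averaged region difference of -0.89 ± 0.28 (adjusted p = 0.39, limma). Its group means had the order of SULF1 28408 and the high-signal CAMK2B probe sets, IPS controls lowest and SII controls highest, though for these members each step between neighbouring groups lay within the spread.

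Calcium/calmodulin kinase signalling genes other than CAMK2A and CAMK2B were mostly below 0 for IPS minus SII: 20 of 25 were below 0 in controls (median -0.34, all genes -0.01), with 7 lower and 1 higher at an unadjusted p under 0.05 and 0 passing (smallest adjusted p = 0.547, limma). Of all 14132 genes, 7281 were below 0 in controls, with 666 lower and 464 higher at an unadjusted p under 0.05. In trained animals 19 of 25 were below 0 (median -0.23), with none at an unadjusted p under 0.05, and the median was -0.13 after quantile normalization and -0.05 in male animals only. CAMK4, a nuclear calmodulin kinase, had -0.55 ± 0.17 for the averaged region difference and GRIA1, an AMPA receptor subunit and kinase substrate, -0.44 ± 0.14 (adjusted p = 0.39 for both, limma). The median over the genes of this list was highest in the arrays of the females (0.45 and 0.36), where hybridisation controls and GAPDH were raised.

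Among 30 heparan sulfate genes, 22 were below 0 for IPS minus SII in controls (median -0.14), and 1 had an unadjusted p under 0.05. Of all 14132 genes, 7281 were below 0 in controls, with 666 lower and 464 higher at that limit. HPSE, the enzyme that cleaves heparan sulfate chains, had a training change of 1.09 ± 0.40 in IPS and HS6ST3, a sulfotransferase that adds sulfate groups of the kind SULF1 removes, an averaged region difference of -1.37 ± 0.51 (adjusted p = 0.999 and 0.43, limma). Among 18 FOXP partners and FOXP2-linked genes, 11 were above 0 for training in SII (median 0.06, or -0.01 after quantile normalization) and 14 were below 0 for region in trained animals (median -0.17), of which 5 had an unadjusted p under 0.05. Of all 14132 genes, 54.5% were above 0 for training in SII. For region in trained animals 7446 were below 0, and 467 of them had an unadjusted p under 0.05. ROBO2, an axon guidance receptor, had an averaged region difference of -0.96 ± 0.24 and NFIB, a nuclear factor, -0.52 ± 0.14 (adjusted p = 0.305 and 0.356, limma). Among 14 helix-loop-helix partners and relatives of NEUROD6, 7 were above and 7 below 0 for training in IPS, with NEUROG2 at 1.48 ± 0.65 (adjusted p = 0.999, limma).

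Markers of other cell types did not pass in any comparison either. For training in IPS, 5 of 9 GABA neuron markers, 6 of 10 astrocyte markers, 6 of 7 oligodendrocyte markers, 9 of 12 microglial markers and 4 of 12 vascular markers were above 0, with medians of 0.05, 0.04, 0.24, 0.25 and -0.06. Of all genes, 54.6% were above 0, with a median of 0.03. For IPS minus SII in controls the medians were -0.05, -0.21, -0.14, -0.36 and -0.12, so glial lists lay below 0 together with the 6 genes. Markers of the striatum and claustrum had a control region median of -0.12 (12 genes) and those of the hippocampus and amygdala -0.04 (12 genes). The part of other cells in the changes of the 6 genes was not tested.

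The genes whose values over the 12 arrays were most like each of the 6 were ranked by Pearson r among 10855 or 10856 genes without floor values. For FEZF2 they were MED27, a Mediator subunit (r = 0.950), H1-2, a linker histone (0.910), and CEP290, a centrosome and cilium protein (0.902), with r of 0.919, 0.822 and 0.871 once group means were removed. For NEUROD6 they were RAD23B (0.934), MAD2L1 (0.931) and CYB5B (0.905). For FOXP2 the likeness was lower and rested on the group means, with SLC45A3 (0.830), COL26A1 (0.809) and TMEM88 (0.805) at 0.546, 0.575 and 0.499 after removing them. For SULF1 they were DRG1 (0.864), CCNH (0.842) and RBM34 (0.839), for CAMK2A IRS2 (0.860), SAP30L (0.843) and PTPRO (0.826), and for CAMK2B KISS1 (0.867), GSG1L (0.866) and DHRS11 (0.859). The FOXP2 and CAMK2B profiles compared here are means that each include a floor probe set. Likeness to the high-signal CAMK2B probe sets alone was not computed. The arrays share animals and the quality readings above, and these likenesses are a description.

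Excitatory markers and genes of other lists followed FEZF2 to different degrees. Over the 12 arrays, 6 of 15 general excitatory neuron genes had an r above 0.5 with FEZF2 (SLC17A7 highest, at 0.82), as did 10 of 25 calcium/calmodulin kinase genes (CALM3 highest, at 0.87) and 14.9% of all genes. Of 20 deep-layer genes 2 did, with SYT6 highest at 0.65. So did 8 of 30 heparan sulfate genes, 3 of 10 astrocyte (ALDOC highest, at 0.71) and 2 of 9 GABA neuron markers. Counts were 2 of 12 for microglial (TYROBP highest, at 0.79), 1 of 7 for oligodendrocyte and 0 of 12 for vascular markers. FEZF2 also had an r of 0.78 with the middle GAPDH probe set, and the part of array quality in these r was not tested. For the CAMK2B mean, which includes a floor probe set, the deep-layer factor BCL11B had the highest r of its list, at 0.85. It was the only 1 of 20 above 0.5 (11% of all genes), and the list had a median r of 0.02 and a lowest of -0.77. For NEUROD6 the highest of the deep-layer list was CDH13, at 0.69, with 5 of 20 above 0.5 (10.3% of all genes) and a median of 0.30. With NEUROD6, 5 of 12 hippocampus and amygdala markers were also above 0.5 (WFS1 highest, at 0.80), and the vascular marker VWF reached 0.82. Of the 15 general excitatory neuron genes, 3 were above 0.5 for NEUROD6, 4 for CAMK2B, 1 for FOXP2, 0 for SULF1 and 0 for CAMK2A. For SULF1, 4 of 12 microglial markers were above 0.5 (6.77% of all genes).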

How the data were processed

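RNA was hybridised to 12 Affymetrix rhesus macaque arrays, which read the 3' end of transcripts. The deposited values are log2 values per probe set, made by the authors with MAS5 (per the submitters' processing notes, no version named) and centred to a median of 0 per probe set. The log base was inferred from the values. How arrays were scaled is not given in the sources used. Levels therefore cannot be compared between probe sets or genes. No detection calls, probe sequences or genome coordinates were used here, and the number of arrays limits the precision.

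Tests covered 52766 of the 52865 probe sets, without 99 controls. Probe sets with 1 symbol in the array's table numbered 24956, those with several 361 and those with none 27449. A coarse signal class before centring was read from the spacing of the stored numbers: high (at least 256 in at least 11 arrays), middle (at least 16), low, or floor (the array's lowest value in at least 2 arrays). Group means were fitted to the log2 values with limma 3.58.1 (R 4.3.3), with the animal as a random block (estimated correlation 0.0474), eBayes and Benjamini-Hochberg adjustment at 0.05, over all probe sets and again over 14132 genes as means of their probe sets. The fit was tested on simulated data. Figures were drawn with matplotlib 3.10.9.

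The 6 genes and all gene lists were chosen with earlier results of these data known. The genes named beside them were those of each list that passed, or otherwise the 2 with the smallest unadjusted p for training in IPS and the 2 for the averaged region difference, the closest family relatives, and the 3 genes with the highest Pearson r to each of the 6. Alternatives were other scalings, array weights, sex as a covariate, male animals only, filters on signal, the replicate block, other ways to combine probe sets, and each array left out.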

Additional observations from a re-analysis of the deposited data

How the results depend on the processing

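The number of probe sets passing the adjusted threshold was 0 in all 6 comparisons, and some alternatives called a few; the causes were not tested. For training in SII the count was 1 after quantile normalization, 2 with array weights, 2 with sex as a covariate and 1 with high and middle signals only. For the region difference in controls it was 4, 30 and 1 after quantile normalization, with array weights and with sex as a covariate. The same count was 1 after median centring, 1 in male animals only and 1 with high and middle signals only. The region difference in trained animals had 3 after quantile normalization and 2 with high and middle signals only, and the averaged region difference had 5 after quantile normalization and 2 with sex as a covariate. Leaving out 1 array gave 0 to 3 for training in SII, 0 to 2 for training in IPS and 0 to 2 for the difference between the training changes. It gave 0 to 14 for the region difference in controls, 0 to 11 in trained animals and 0 to 14 for their average, and the highest count came without SII trained animal 3 except for training in IPS and the difference of training changes (IPS trained animal 1).

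Fitting the replicate number as a block (the replicate block) gave 0 in all 6 comparisons. Equal numbers mark the same animal only for trained animals 1 and 3, and the deviations of same-numbered SII and IPS arrays from their group means correlated between -0.09 and 0.06 over all probe sets. No 2 arrays held identical values.

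Of 1947 recomputed changes of the member probe sets, 1943 moved by less than 1 SD of the replicates, as did 804 of 822 changes of the gene means. The gene means that moved were those of FOXP2 and CAMK2B when floor or low probe sets were left out or the median over probe sets was taken. Leaving out 1 array shifts a group mean by less than 1 SD of that group, so many alternatives could hardly reach this limit. The counts therefore do not show that the changes were stable. For FEZF2 the sign reversed in 5 of 22 alternatives for training in SII and in 7 of 23 for region in trained animals. It reversed in 0 of 22 for training in IPS. An alternative with 1 common floor for all arrays, and one leaving out only floor probe sets, were chosen after seeing the data.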

Other observations

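Among the marker lists of other cell types, the microglial genes had the lowest median region difference. All 12 were below 0 for IPS minus SII in control animals (median -0.36), and 10 of 12 were below 0 in trained animals (median -0.25). Of all 14132 genes, 7281 were below 0 in control and 7446 in trained animals. C1QB, a complement component made by microglia, had an averaged region difference of -0.70 ± 0.12 (SE) with an adjusted p of 0.124 in limma with Benjamini-Hochberg adjustment, and CSF1R, the receptor that microglia need to survive, had -0.59 ± 0.18 with an adjusted p of 0.378. The median over the 12 genes lay between 0.05 and 0.43 in the 6 SII arrays. In the 6 IPS arrays this median lay between -0.35 and -0.06, so the regions did not overlap in it. The list was chosen with earlier results of these data known, so this separation is a description and carries no test. Of the 12 genes, 0 had a high signal. Both female arrays are SII arrays, and in male animals only the median region differences were -0.42 in controls and -0.28 in trained animals.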
